A study of Mus musculus with 32 samples.

Results

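The comparison described here is that of unirradiated Oct-1 mutant and unirradiated wild type mouse embryonic fibroblasts (MEFs), primary cells grown out of embryos and used at an early passage. Its members were chosen by the sample titles, which mark 4 RNA extracts as Oct-1 mutant without irradiation and 4 as wild type without irradiation. Each extract was hybridised to 2 Affymetrix expression arrays that carry different probe sets, called array A and array B, so that 16 of the 32 samples of the series enter the comparison, 8 on each array type. The other 16 samples are the irradiated cells of both genotypes, and they were used here to estimate the spread and to give the same genotype difference in irradiated cells. The type of mutation, the strain, the age and number of the embryos, the cultures behind the replicates and the radiation dose and time are not stated in the labels used here. P-values measure only the spread between these extracts, which may be technical, and 4 arrays a group limit the precision.

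Oct-1, the product of Pou2f1, is a widely expressed transcription factor of the POU family. Its bipartite DNA-binding domain, made of a POU-specific part and a homeodomain, recognises the octamer ATGCAAAT and related sequences in promoters and enhancers. It is known for its part in the transcription of small nuclear RNA and histone genes, where it works with the small nuclear RNA activating complex and with coactivators, and it has been linked to stress responses and metabolism in fibroblasts. The mutated gene could not be used to check the labels, because the annotation pairs 0 probe sets of either array with Pou2f1, and its level was not analysed here.

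The genotypes also differed in genes of the sex chromosomes. Xist, the non-coding RNA of the inactive X chromosome, lay between 3.16 and 3.29 on the log2 scale in the 4 mutant extracts and between 8.32 and 9.78 in the 4 wild type extracts. Eif2s3y, a Y-linked translation factor gene, lay between 8.63 and 9.11 in the mutant and between 3.00 and 3.29 in the wild type. The same held in irradiated cells, where the log2 difference, mutant minus wild type, was -5.85 for Xist and 5.39 for Eif2s3y. Sex chromosome expression thus separated the groups exactly as the genotype label does, and the part of either in any difference below cannot be told apart. Abundant fibroblast markers were high in both groups: Vim had means of 14.76 and 14.78 in mutant and wild type, Col1a1 14.64 and 14.58, and Thy1 12.96 and 12.45. These markers were picked for their abundance, so they do not test the fibroblast label.

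Promoters with the octamer are shown because Oct-1 is known to recognise it. In the RefSeq promoter table (mouse build GRCm38.p6, 250 bases before to 50 after each gene's start) the motif ATGCAAAT, searched on both strands, was present in 570 of 32851 promoters, or 1.74%. Promoters are shown for the called autosomal genes with an octamer in the upstream bases and the smallest adjusted p, 3 that were higher and 3 that were lower in the mutant. Each line gives the 250 bases before the start, 5′ to 3′ along the gene, with the octamer, or its reverse complement ATTTGCAT, in capitals. A match is a description of these letters and not a binding site.
Rgs4 (chr1:169747643-169747892, minus strand): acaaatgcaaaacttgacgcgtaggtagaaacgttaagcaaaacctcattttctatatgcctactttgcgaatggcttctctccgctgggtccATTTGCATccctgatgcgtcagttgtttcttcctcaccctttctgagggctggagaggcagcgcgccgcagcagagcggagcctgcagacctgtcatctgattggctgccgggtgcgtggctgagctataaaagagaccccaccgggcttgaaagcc
Plppr2 (chr9:21936760-21937009, plus strand): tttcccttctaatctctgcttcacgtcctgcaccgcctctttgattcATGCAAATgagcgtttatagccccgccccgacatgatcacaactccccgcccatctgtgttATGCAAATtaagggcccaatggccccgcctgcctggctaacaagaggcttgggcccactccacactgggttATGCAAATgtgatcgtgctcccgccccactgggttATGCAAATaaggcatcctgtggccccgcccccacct
Ypel3 (chr7:126776713-126776962, plus strand): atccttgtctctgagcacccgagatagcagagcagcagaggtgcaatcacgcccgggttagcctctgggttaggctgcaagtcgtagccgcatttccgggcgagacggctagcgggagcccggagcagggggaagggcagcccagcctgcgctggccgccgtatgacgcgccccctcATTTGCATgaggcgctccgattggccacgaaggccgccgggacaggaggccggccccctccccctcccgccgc
Lpcat1 (chr13:73466981-73467230, plus strand): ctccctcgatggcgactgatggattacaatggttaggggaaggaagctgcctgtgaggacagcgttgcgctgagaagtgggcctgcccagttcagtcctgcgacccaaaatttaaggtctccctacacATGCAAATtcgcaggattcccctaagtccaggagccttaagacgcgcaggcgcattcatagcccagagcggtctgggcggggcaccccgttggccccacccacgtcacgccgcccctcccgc
Med16 (chr10:79908939-79909188, minus strand): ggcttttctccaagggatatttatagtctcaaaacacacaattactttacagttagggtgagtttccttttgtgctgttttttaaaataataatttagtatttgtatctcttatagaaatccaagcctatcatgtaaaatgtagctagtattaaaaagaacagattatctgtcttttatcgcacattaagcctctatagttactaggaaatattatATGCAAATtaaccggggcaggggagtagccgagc
Zfp207 (chr11:80383029-80383278, plus strand): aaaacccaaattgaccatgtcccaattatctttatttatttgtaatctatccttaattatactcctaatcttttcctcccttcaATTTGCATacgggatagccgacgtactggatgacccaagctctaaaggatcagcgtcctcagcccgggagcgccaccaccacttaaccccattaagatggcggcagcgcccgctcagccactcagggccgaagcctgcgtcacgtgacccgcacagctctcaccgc

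Rgs4, a regulator that shortens G protein signalling, rose by 1.57 on the log2 scale and has 1 octamer, 157 bases before its start. Plppr2, a phospholipid phosphatase related membrane protein, rose by 0.62 and carries 4 copies. Ypel3, a small zinc-binding protein, rose by 0.82. Lpcat1, a lysophosphatidylcholine acyltransferase, fell by 0.30, the Mediator subunit gene Med16 fell by 0.37 and the zinc finger gene Zfp207 fell by 0.56. Among autosomal genes of array A with a promoter in the table, the octamer was present in 12 of 515 that rose (2.33%), in 5 of 356 that fell (1.40%) and in 89 of all 6204 tested (1.43%). On array B it was present in 2 of 62 genes that rose and in 0 of 68 that fell, against 74 of 5166 tested. Of the 35 autosomal genes with the largest differences, listed below, 23 had a promoter in the table and 1, Rgs4, had the octamer.

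On array A the mutant and the wild type differed in 1471 of 13576 tested probe sets, which is 10.8% at an adjusted p under 0.05 in limma: 862 rose (6.35%) and 609 fell (4.49%) in the mutant. On array B 211 of 13507 were called (1.56%), of which 108 rose (0.800%) and 103 fell (0.763%). With median centring of the arrays 731 rose and 706 fell on array A, and with quantile normalization 814 and 676. On array B the splits were 85 and 78 with median centring and 158 and 114 with quantile normalization. The called probe sets of array A that name a single autosomal gene numbered 1278, with 758 higher and 520 lower, and stood for 1078 of 7579 autosomal genes tested. On array B there were 177 such probe sets, 92 higher and 85 lower, for 164 of 6462 genes. Most differences were small: 965 of the 1278 were under 1.5-fold, and 79 were over 2-fold, 60 of them higher in the mutant. On array B 24 of the 177 were over 2-fold, 16 higher and 8 lower. The 4 mutant and 4 wild type values did not overlap in 750 of the 1278 and in 126 of the 177. Called probe sets are chosen for such separation, and the share without overlap over all tested probe sets was not counted.

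These counts rest on removing the difference between 2 runs of title numbers, which separates replicates 1 and 2 of every group from replicates 3 and 4. Without that term limma called 525 probe sets on array A and 59 on array B, all of them among those called with it. The sign was the same within both runs for all 1471 and all 211. Each called difference is the average of the differences within the 2 runs, so the call itself favours equal signs. This count is no separate support. Leaving out 1 extract at a time gave 1048 to 1314 calls on array A. On array B it gave 125 to 203, with 130 without wild type replicate 2 and 125 without wild type replicate 3.

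The largest rise of an autosomal gene was that of Ifi202b, an interferon-inducible DNA-binding protein gene of the Ifi200 cluster on chromosome 1. Its deposited log2 values were 8.81, 9.18, 8.34 and 8.24 in mutant replicates 1 to 4 and 3.64, 3.49, 4.01 and 3.81 in the wild type. The lowest mutant value lay more than 4 log2 units above the highest wild type value. The difference was 4.91 (SE 0.16), or 30.0-fold, with an adjusted p of 5.17e-13. The wild type mean of 3.74 was under 4.97, the mean over all arrays that the filter required. For Ifi202b and for the 9 other array A genes named here whose lower group mean was under that mark (Prdx2, Ctse, Fxyd6, Ptprv, Rdm1, Pclaf, Gm6958, Elavl2 and Cbr2), the fold is that of the deposited values, and background itself was not measured.

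Ctse encodes cathepsin E, an intracellular aspartic protease. It measured 8.39, 8.24, 7.12 and 7.31 in the mutant and 4.83, 5.47, 3.54 and 4.55 in the wild type, and rose by 3.16 (SE 0.20, adjusted p = 1.04e-08). In Fxyd6, a small membrane protein that modulates the sodium pump, the mutant values were 6.49, 5.93, 6.40 and 7.15 and the wild type values 3.40, 3.36, 4.33 and 4.12, a rise of 2.69 (SE 0.19, adjusted p = 3.53e-08). Every mutant extract exceeded every wild type extract for both, as the rule that chose the named genes required. Ptprv, a receptor-type tyrosine phosphatase known as a p53 target, had mutant values of 6.49, 6.19, 7.30 and 7.39 and wild type values of 4.65, 4.44, 5.04 and 4.90, and rose by 2.08 (SE 0.16, adjusted p = 1.40e-07). Rdm1, a RAD52-motif protein of DNA repair, rose by 1.83 (SE 0.13, adjusted p = 3.53e-08), from 4.23 ± 0.19 to 6.06 ± 0.15 (mean ± SD, n = 4 per group). Rgs4 rose by 1.57 (SE 0.12, adjusted p = 1.54e-07), with mutant values of 9.33, 9.37, 8.89 and 9.17 against 7.59, 7.95, 7.39 and 7.57.

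Secreted and matrix proteins made up several of the other large rises. Igfbp3, which carries insulin-like growth factors, measured 8.48, 8.77, 9.06 and 9.22 in the mutant and 6.60, 6.54, 6.26 and 6.49 in the wild type on array A, a rise of 2.41 (SE 0.19, adjusted p = 1.37e-07). A different probe set on array B gave 7.36, 7.45, 7.57 and 7.55 against 5.31, 5.52, 4.57 and 4.96, a rise of 2.39 (SE 0.23). Both probe sets gave nearly the same difference, and both were chosen among those whose groups did not overlap. Dcn, the small proteoglycan decorin that binds collagen fibrils, had 7.64, 7.74, 8.52 and 8.70 in the mutant and 5.26, 5.98, 6.01 and 6.32 in the wild type and rose by 2.25 (SE 0.15, adjusted p = 2.81e-08). Prelp, another leucine-rich proteoglycan, rose by 2.15 (SE 0.18, adjusted p = 2.20e-07), from 5.41 ± 0.26 to 7.56 ± 0.48. Cxcl14, a chemokine, had 9.61, 9.26, 9.51 and 9.70 against 7.97, 7.74, 7.88 and 8.0 and rose by 1.62 (SE 0.10, adjusted p = 4.06e-09). Lgr5, a receptor for R-spondins that strengthens Wnt signalling, had 8.43, 8.54, 8.44 and 8.41 in the mutant and 6.66, 6.63, 6.25 and 6.09 in the wild type, a rise of 2.05 (SE 0.16, adjusted p = 9.27e-08). The groups did not overlap for any of these genes, by the rule that chose them.

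**Figure D1:**
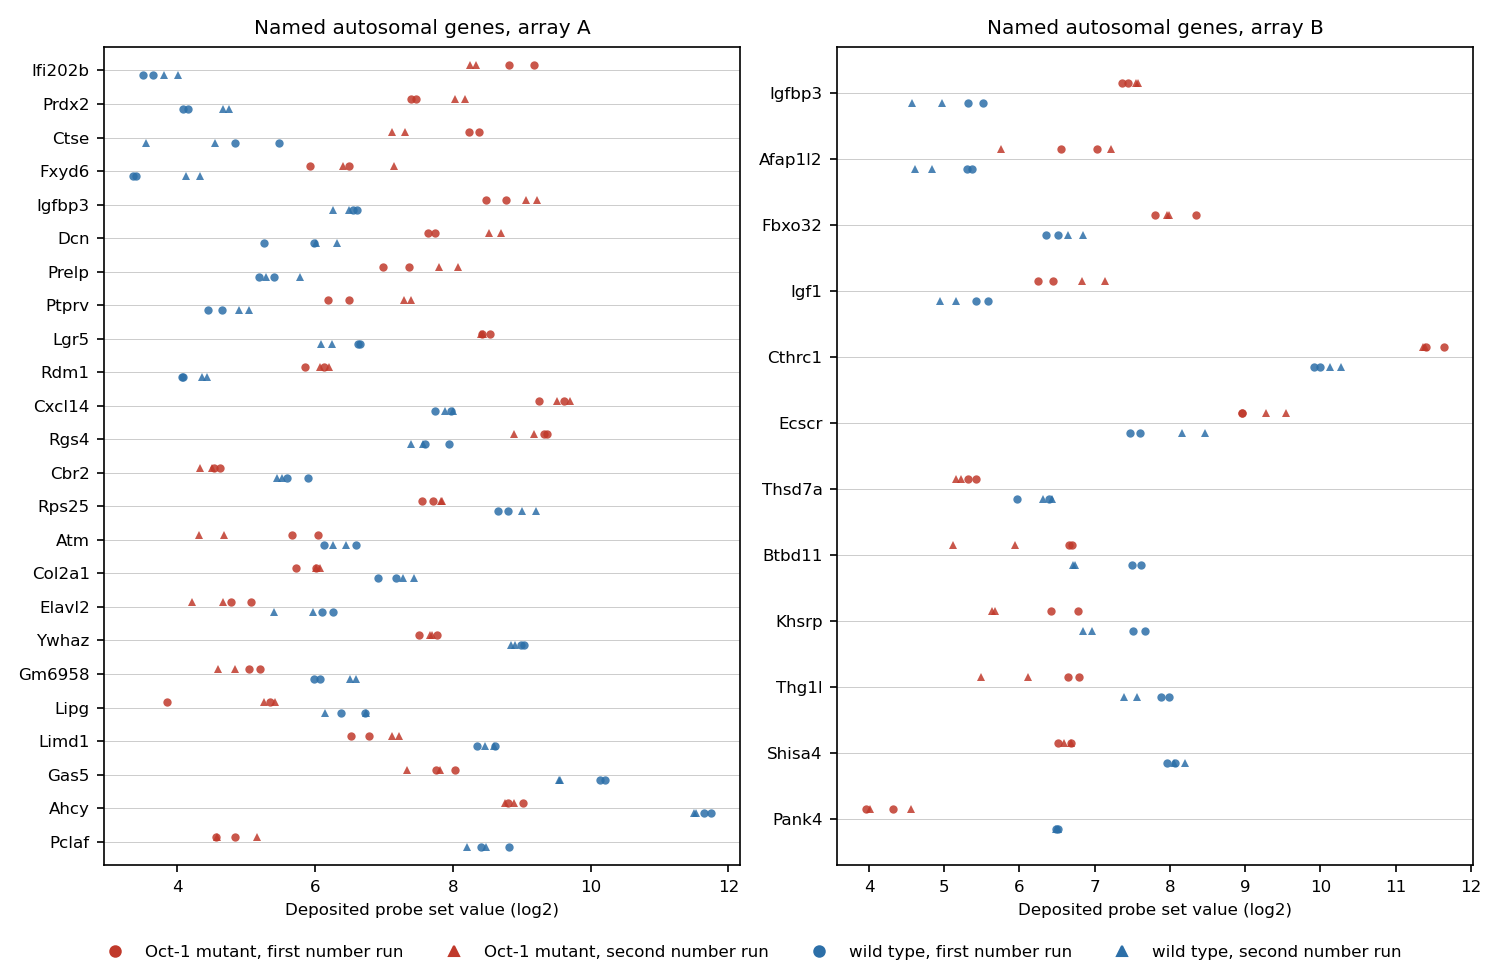
Deposited log2 probe set values of the 24 named autosomal genes of array A (left) and the 12 of array B (right), 1 point per extract, with red for Oct-1 mutant, blue for wild type, circles for the first number run (replicates 1 and 2) and triangles for the second (replicates 3 and 4). In every row the 4 mutant points lie on one side of the 4 wild type points, by the rule that chose the genes, and the 2 runs of a group are often apart, as for Ctse and Khsrp.

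Among the falls, Pclaf, a factor that binds the replication clamp PCNA, had 4.84, 4.57, 4.57 and 5.15 in the mutant and 8.42, 8.82, 8.49 and 8.21 in the wild type, and fell by 3.70 (SE 0.17, adjusted p = 9.43e-11). Ahcy encodes the enzyme that hydrolyses S-adenosylhomocysteine, the product of methylation reactions. It measured 8.80, 9.02, 8.89 and 8.76 in the mutant and 11.65, 11.76, 11.53 and 11.50 in the wild type and fell by 2.74 (SE 0.06, adjusted p = 2.10e-15), 6.68-fold, with no value of one group near the other. Gas5, a non-coding host transcript of small nucleolar RNAs, had 8.04, 7.75, 7.81 and 7.34 against 10.21, 10.13, 9.55 and 9.56 and fell by 2.12 (SE 0.11, adjusted p = 3.35e-10). Its 3 other probe sets kept by the filter also fell, by 1.81, 0.92 and 0.76.

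Further falls on array A were smaller. Limd1, a LIM-domain scaffold protein, fell by 1.60 (SE 0.14), Lipg, endothelial lipase, fell by 1.53 (SE 0.25), and Ywhaz, the 14-3-3 zeta adaptor, by 1.27 (SE 0.12). Elavl2, an RNA-binding protein best known from neurons, fell by 1.26 (SE 0.20), Col2a1, the cartilage collagen, by 1.25 (SE 0.12), and Gm6958, a predicted gene, by 1.37 (SE 0.19). Rps25, a small ribosomal subunit protein, fell by 1.18 (SE 0.11), and Cbr2, a carbonyl reductase, by 1.11 (SE 0.15). Atm, the kinase that answers DNA double-strand breaks, had 5.67, 6.04, 4.68 and 4.31 in the mutant and 6.60, 6.12, 6.45 and 6.26 in the wild type. It fell by 1.18 (SE 0.23, adjusted p = 0.00257), by 0.51 in replicates 1 and 2 and by 1.86 in replicates 3 and 4, the mutant extracts of the second pair being the lowest.

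On array B, Fbxo32, the atrogin-1 subunit of a ubiquitin ligase, had 7.80, 8.34, 7.96 and 7.98 in the mutant and 6.35, 6.51, 6.64 and 6.84 in the wild type, and rose by 1.43 (SE 0.12, adjusted p = 1.87e-05). Cthrc1, a secreted collagen-repeat protein, measured 11.40, 11.64, 11.39 and 11.37 against 9.91, 9.99, 10.12 and 10.28, a rise of 1.38 (SE 0.08, adjusted p = 3.52e-07). Both groups were tight for Cthrc1 and more than 1 log2 unit apart. Afap1l2, an actin-associated adaptor, rose by 1.61 (SE 0.24, adjusted p = 0.0037), and Ecscr, a surface protein known from endothelial cells, by 1.26 (SE 0.09, adjusted p = 3.63e-06). Fitted on the unirradiated arrays alone, Afap1l2 did not pass (adjusted p = 0.0956), and Igf1 (0.0650) and Btbd11 (0.0745), both given below, did not either. The growth factor gene Igf1 rose by 1.39 (SE 0.28, adjusted p = 0.023), with 6.25, 6.44, 7.13 and 6.83 against 5.58, 5.42, 5.15 and 4.95. This call did not survive the removal of any 1 of 5 extracts, the adjusted p being 0.0691 and 0.0608 without mutant replicates 3 and 4 and 0.0544, 0.0744 and 0.0740 without wild type replicates 2, 3 and 4.

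Pank4, a pantothenate kinase family protein, was the largest fall of array B, with 4.32, 3.96, 4.56 and 4.01 in the mutant and 6.48, 6.51, 6.48 and 6.51 in the wild type. It fell by 2.28 (SE 0.15, adjusted p = 1.11e-06), and the 4 wild type values lay between 6.48 and 6.51. Shisa4, a membrane adaptor gene, had 6.68, 6.51, 6.59 and 6.68 against 7.96, 8.07, 8.06 and 8.20 and fell by 1.46 (SE 0.09, adjusted p = 7.86e-07). Thg1l, an enzyme of histidine tRNA maturation, fell by 1.45 (SE 0.23), Khsrp, an RNA-binding protein of splicing and mRNA decay, by 1.12 (SE 0.17), and Thsd7a, a thrombospondin-domain protein, by 0.99 (SE 0.13). Btbd11, an ankyrin repeat and BTB domain gene, fell by 1.04 (SE 0.21), a call that was lost without wild type replicate 1 (adjusted p = 0.0562) or wild type replicate 2 (adjusted p = 0.0762). Without the term for the number run, the calls of Ecscr (adjusted p = 0.0547), Thg1l (0.0509), Khsrp (0.222) and Btbd11 (0.222) were lost as well.

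Probe sets of the same gene did not always agree in size. Of the 24 named genes of array A, 11 had another probe set kept by the filter on either array, and in 4 of them (Igfbp3, Cxcl14, Rgs4 and Gas5) at least 1 of these moved 50% as far or more in the same direction. In the other 7, Prdx2, Ctse, Pclaf, Limd1, Ywhaz, Gm6958 and Atm, none did. Prdx2, a peroxiredoxin that removes hydrogen peroxide, rose by 3.36 (SE 0.10, adjusted p = 1.15e-13) at a probe set with 7.39, 7.47, 8.03 and 8.18 in the mutant and 4.09, 4.15, 4.66 and 4.75 in the wild type. At its other, brighter probe set the means were 12.09 and 12.13 and the difference was -0.05 (adjusted p = 0.681). Pclaf differed by -0.08 and 0.08 at its other probe sets, Limd1 by -0.06, Atm by -0.12 and Ctse by 0.26. The other probe set of Gm6958 fell by 0.58 (adjusted p = 0.0188). Ywhaz had 6 others, from -0.46 (adjusted p = 0.0343) to 0.12. On array B, Fbxo32 (1.55 and 1.35 on array A), Igf1 (0.54, 1.20 and 0.72 on array A), Khsrp and Btbd11 had such support beside Igfbp3, while Afap1l2 (0.20) and Thsd7a (-0.27) did not. Counting also probe sets that the filter left out for their low mean, 16 of the 24 array A genes had another. In 5 of these at least 1 moved 50% as far or more, now with Elavl2 (-0.66), and in 11 none did. Left-out probe sets of Dcn differed by 0.02, of Prelp by 0.19, of Lgr5 by -0.0047 and of Lipg by 0.03 and -0.67. On array B that of Thg1l differed by -0.07. Probe sets of a gene can read different transcripts or differ in what else they bind, and which of these applies was not tested.

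**Figure D2:**
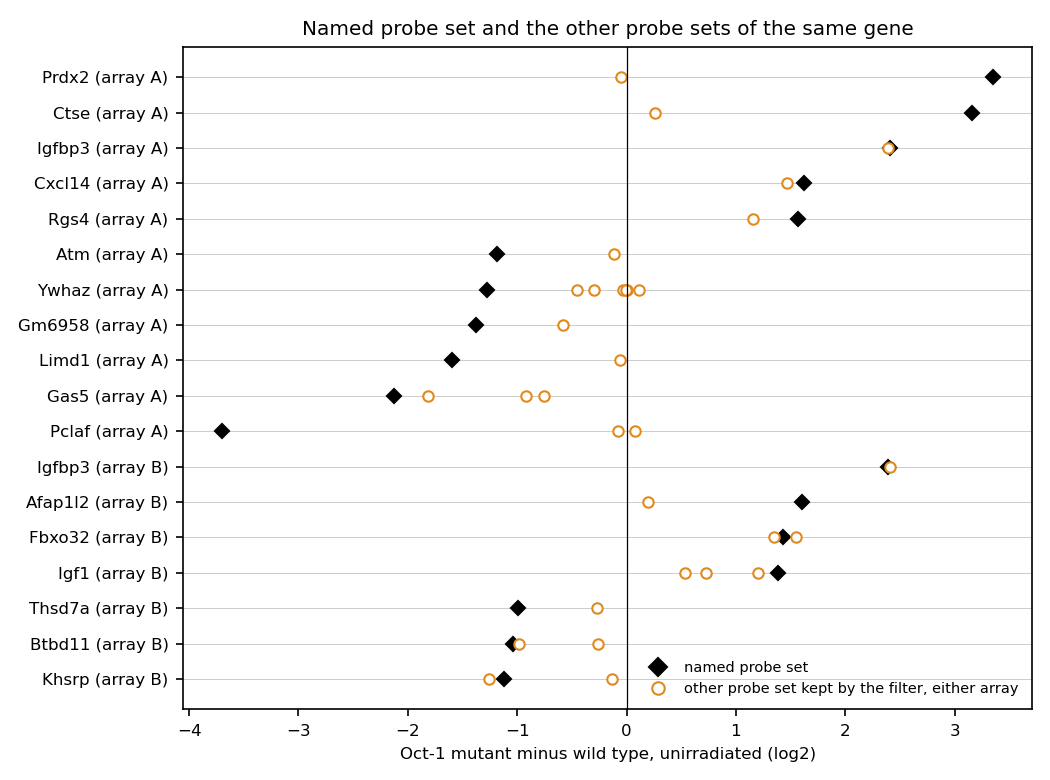
Log2 difference, Oct-1 mutant minus wild type in unirradiated cells, at the named probe set (black diamonds) and at the other probe sets of the same gene kept by the filter on either array (open circles), for the 18 named rows with at least 1 other. Igfbp3, Cxcl14, Fbxo32 and Gas5 have open circles near the diamond, and Prdx2 (3.36 against -0.05) and Pclaf (-3.70 against -0.08 and 0.08) have none.

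The same genotype difference was measured in the irradiated cells, on 8 other arrays of each type. Whether irradiated and unirradiated cells came from the same embryos is not stated in the labels used here. All 24 named genes of array A and all 12 of array B were also called there, with the same sign. Ifi202b rose by 4.61, Prdx2 by 3.70, Ctse by 3.25 and Igfbp3 by 2.47 on array A, while Pclaf fell by 4.34, Ahcy by 2.70, Gas5 by 1.99 and Pank4, on array B, fell by 2.66. Over all probe sets, 896 of the 1471 called on array A and 115 of the 211 on array B were called in irradiated cells too. Among all tested, 1405 of 13576 and 216 of 13507 probe sets were called in irradiated cells. The sign was the same in both states for 73.8% of all tested probe sets on array A and 70.7% on array B. A test of whether the genotype difference itself differed with irradiation called 0 probe sets in limma on either array, with 387 on array A and 398 on array B at an unadjusted p under 0.05. Ptprv, higher by 2.08 unirradiated and 3.33 irradiated, had a difference of these of 1.24 (SE 0.23, unadjusted p = 4.84e-05, adjusted p = 0.657).

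**Figure D3:**
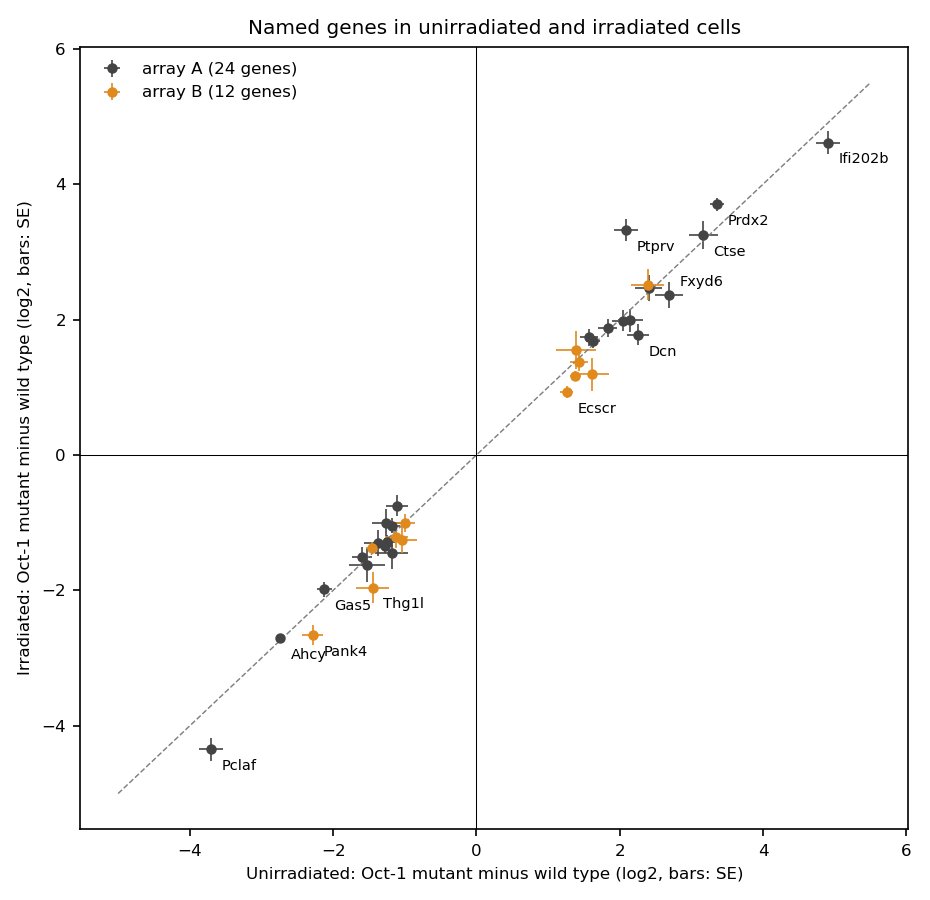
Oct-1 mutant minus wild type (log2) in unirradiated cells (horizontal) and irradiated cells (vertical) for the 24 named genes of array A (grey) and the 12 of array B (orange), with bars for the standard error of the limma fit and a dashed line where both are equal. The genes lie near the line on both sides of zero, and Ptprv (2.08 and 3.33) lies farthest above it.

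Gene lists were then described by their measured members, with 1 probe set a gene. On array A 10.8% of all tested probe sets were called, with a median difference of 0.00, and on array B 1.56%, with 0.01. Counted by gene, 14.2% of autosomal genes were called on array A and 2.54% on array B. Such a gene counted if any of its probe sets was called, so neither share is counted quite as the lists are. The lists include a few X-linked genes in their counts. A change in RNA level per cell and a change in the share of cells of one kind cannot be told apart in such bulk extracts.

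The list of POU factors and small nuclear RNA machinery held 12 measured genes on array A, of which 0 rose, 2 fell and 10 did not pass. Snapc3, a subunit of the small nuclear RNA activating complex, fell by 0.71 (SE 0.09, adjusted p = 2.89e-05), and a second probe set of array A fell by 0.73. Another, on array B, differed by 0.10. Ell2, an elongation factor, fell by 0.45 (SE 0.11) with an adjusted p of 0.011, which was 0.0500102 without wild type replicate 3 and 0.0825 without the run term. Sfpq (-0.25), Snapc2 (0.06), the X-linked Nono (0.03) and coactivator Hcfc1 (0.09), Gtf2b (0.05), the TATA-binding protein Tbp (-0.07) and Ell (0.20) did not pass. The related POU factors Pou2f3 (-0.12), Pou3f2 (0.08) and Pou6f1 (-0.18) did not pass either, at levels between 5.12 and 5.74. On array B, 0 of 9 measured members were called: Snapc1 differed by -0.0044, Snapc4 by 0.27, Pou3f3 by 0.04 and Pou4f1 by -0.05, and the other members there were further probe sets of Nono, Ell, Sfpq, Snapc3 and Pou3f2, from -0.01 to 0.16. Of the replication-dependent histone genes, 3 were measured on array A and 1, the linker histone gene H1f2, rose by 0.79 (SE 0.09, adjusted p = 1.24e-05), a call that was lost without the run term (adjusted p = 0.119). Without mutant replicate 3 the count was 2.

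Among genes reported as Oct-1 targets, 13 were measured on array A, of which 4 rose, 2 fell and 7 did not pass. This list was drawn up with results of these arrays known, and its count is no independent evidence of its direction. Gpx3, the secreted glutathione peroxidase, was the largest rise, with 8.35, 8.67, 8.49 and 8.83 in the mutant and 7.10, 7.19, 7.05 and 7.45 in the wild type, a difference of 1.39 (SE 0.11, adjusted p = 9.27e-08). Cyp1b1, a cytochrome P450 induced by aryl hydrocarbons, rose by 0.56 (SE 0.07, adjusted p = 1.65e-05), and the small GTPase gene Rras by 0.29 (SE 0.07, adjusted p = 0.00867), which was 0.44 without the run term. The adhesion molecule gene Vcam1 rose by 0.30 (SE 0.08, adjusted p = 0.0268), a call that was lost without mutant replicate 1 (adjusted p = 0.0970), mutant replicate 3 (0.0619), wild type replicate 1 (0.0621) or wild type replicate 2 (0.0874), and without the run term (0.138). Ahcy and Ell2, given above, fell. The others were Ndufa3 (0.07), Prdx2 at its brighter probe set (-0.05), Taldo1 (0.14), Blcap (0.22), Polr2a (0.05), Brca1 (-0.34) and Gadd45a (0.20), which did not pass. On array B the only measured target was Ndufa3, with a difference of 0.09.

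**Figure D4:**
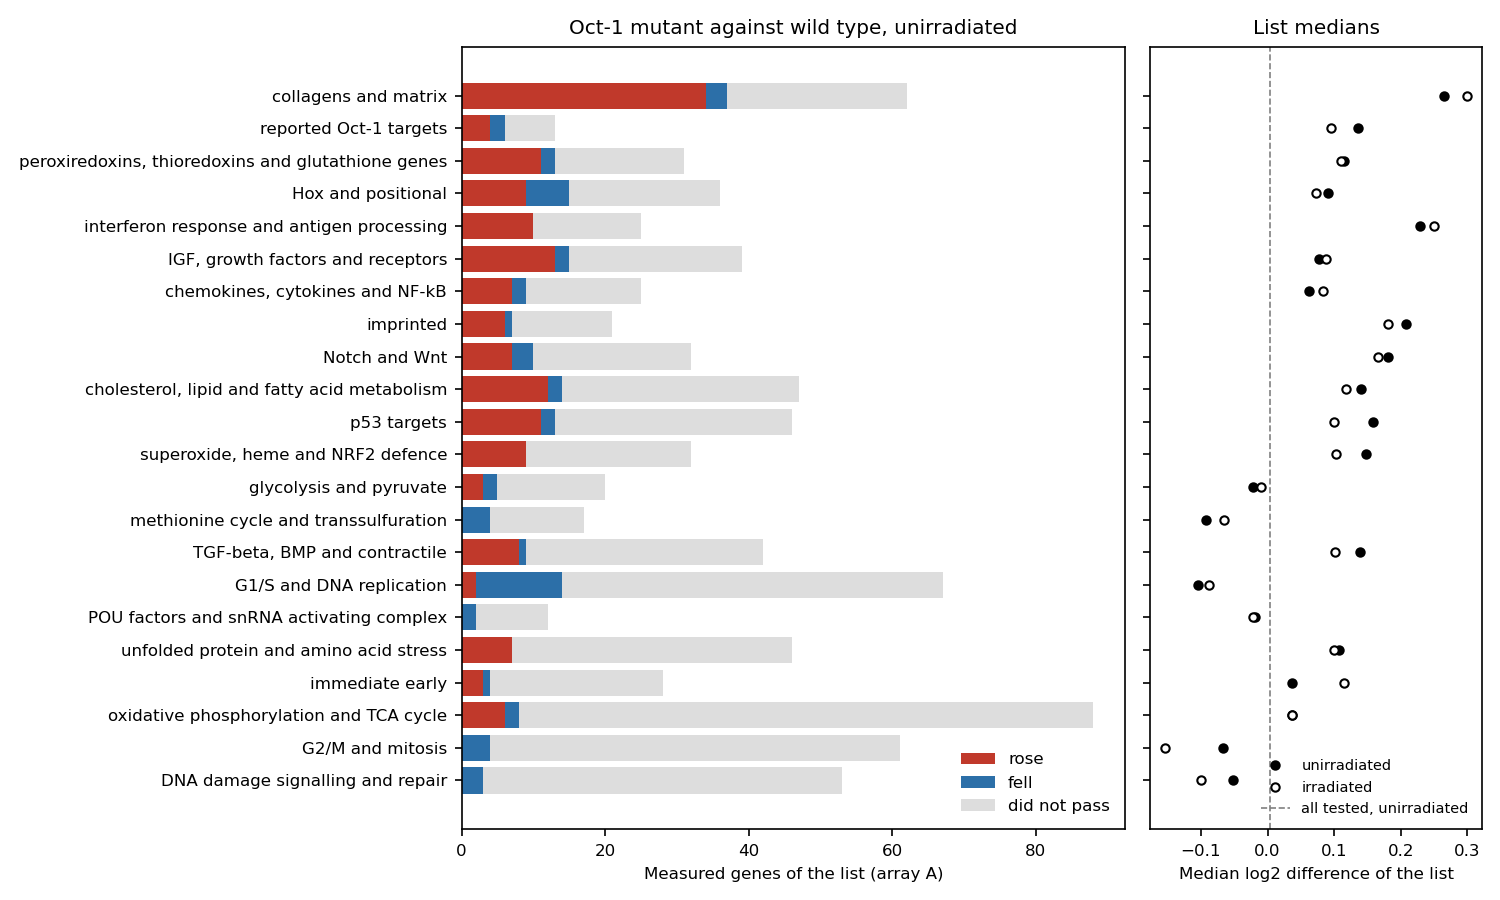
Left, the measured genes of each list on array A that rose (red), fell (blue) or did not pass (grey) in unirradiated Oct-1 mutant against wild type cells. Pathway lists with at least 5 measured genes are drawn, ordered by the share called. The sex-linked marker list and the cell type marker lists are not drawn. Right, the median log2 difference of each list in unirradiated (filled) and irradiated (open) cells, with the median of all tested probe sets dashed. The collagen and matrix list has the most calls, 34 higher and 3 lower of 62.

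Collagens and matrix genes gave the highest share of calls among the pathway lists with at least 10 measured genes: of 62 measured on array A, 34 rose, 3 fell and 25 did not pass, with a median difference of 0.26. Timp3, an inhibitor of metalloproteinases held in the matrix, rose by 1.13 (SE 0.12, adjusted p = 7.02e-06), from 10.63 ± 0.18 to 11.75 ± 0.34, and its 3 other probe sets rose by 1.15 to 1.34. Lama4, a laminin chain of basement membranes, rose by 1.10 (SE 0.12, adjusted p = 7.95e-06), and the large proteoglycan versican (Vcan) by 0.64 (SE 0.07, adjusted p = 1.03e-05). Fmod, fibromodulin, rose by 0.91 (SE 0.12, adjusted p = 4.11e-05). The cartilage collagen gene Col2a1 was one of the 3 falls, at 5.95 ± 0.15 against 7.20 ± 0.22. The abundant fibrillar collagen genes differed little: Col1a1 by 0.06, Col1a2 by 0.18 and Col3a1 by 0.20, none of which passed. Without the run term 13 of the list rose and 1 fell, and leaving out 1 extract at a time left 28 to 34 rises. In irradiated cells 35 rose and 3 fell. On array B 2 of 16 rose, Col8a2 by 1.24 (SE 0.19, adjusted p = 0.00442) and Col8a1 by 0.44 (SE 0.08, adjusted p = 0.0099).

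Of 22 measured fibroblast markers on array A, 10 rose and 0 fell, with 3 rises without the run term. The mean over the 22 lay between 11.11 and 11.49 in the mutant extracts and between 10.84 and 10.99 in the wild type, without overlap. Such separation was not particular to fibroblast markers. On array A the means of the POU factor list, the collagen and matrix list and the imprinted genes did not overlap either. Those of the reported Oct-1 targets and the glycolysis genes did. Lum, lumican, rose by 1.38 (SE 0.20, adjusted p = 0.000135) and the surface protein podoplanin (Pdpn) by 0.98 (SE 0.14, adjusted p = 0.000118). Of these, Lum had an adjusted p of 0.1 without the run term. The platelet-derived growth factor receptor genes Pdgfra and Pdgfrb rose by 0.53 and 0.41, and Thy1 by 0.51, calls that were lost without the run term. Vim (-0.02), Col1a1 and Fn1 (0.17) did not pass. The part of a change in cell make-up in the matrix counts was not tested.

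Markers of other cell types were few and mostly low. Of the 21 macrophage and blood markers with a probe set 7 were kept by the filter on array A, with a mean level of 6.10 to 6.28 in the mutant and 5.80 to 6.10 in the wild type, and 1 rose, Lyz2, by 0.59 (SE 0.17), a call that was lost without mutant replicate 3 or 4 or wild type replicate 1, 2 or 3. Only 1 of 22 skeletal muscle markers with a probe set was kept there, with 0 called. For endothelial and pericyte markers 5 of 16 were kept and 0 called. Of 17 epithelial markers 6 were kept and 2, Krt5 and Krt18, rose. Of these, 0 remained without mutant replicate 3 or wild type replicate 2, and 1 without mutant replicate 1, 2 or 4 or wild type replicate 1 or 3. Of adipocyte markers 4 were kept and 1, Fabp4, fell by 0.50 (SE 0.11, adjusted p = 0.00472). Cartilage and bone markers had 2 kept on array A, of which Col2a1 fell and Sox9, a cartilage transcription factor, rose by 0.43 (SE 0.11). Other Sox9 probe sets did not pass, with 0.05 on array A and 0.16 on array B (adjusted p = 0.751 and 0.237). Neural and glial markers had 11 kept, of which Map2 (-1.24) and Stmn2 (-0.45) fell and Ncam1 rose. On array B 4 were kept and 2 of them fell, Map2 by 0.80 (SE 0.12) and the endothelin receptor gene Ednrb by 1.45 (SE 0.26, adjusted p = 0.0118), with mutant values of 6.33, 5.99, 5.01 and 5.48 and wild type values of 7.64, 8.16, 6.52 and 6.29. One mutant value of Ednrb lay above the lowest wild type value. The mean over these 4 markers lay between 5.70 and 6.12 in the mutant and between 6.24 and 6.74 in the wild type, without overlap. On array B the means of the collagen and matrix list did not overlap either, while those of the fibroblast markers did. The array B calls of Map2 and Ednrb were both lost without the run term (adjusted p = 0.222 and 0.441). The part of such cells in the other results was not tested. On array A the rise of Ncam1 was lost without mutant replicate 2 or 4 or wild type replicate 1, 2 or 3, and 1 of the 2 falls without mutant replicate 2. Of the calls in these lists of other cell types on array A, those of Fabp4 and Col2a1 were kept without the run term and the other calls were lost.

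The list of IGF genes, growth factors and receptors had 39 measured on array A, of which 13 rose and 2 fell, and 9 and 1 without the run term. Beside Igfbp3, the growth arrest ligand Gas6 rose by 1.03 (SE 0.11, adjusted p = 6.64e-06), the heparin-binding factor midkine (Mdk) by 0.66 (SE 0.08, adjusted p = 4.20e-05) and its relative Ptn by 0.49 (SE 0.08, adjusted p = 0.000729). Igfbp6 rose by 0.43 (SE 0.06) and Igfbp5 by 0.67 (SE 0.12), while another Igfbp5 probe set differed by 0.15 (adjusted p = 0.365). On array B 3 of 17 rose and 1 fell: Pdgfrl, a receptor-like protein, rose by 1.04 (SE 0.07, adjusted p = 2.15e-06), lost without the run term (adjusted p = 0.106), and Met, the hepatocyte growth factor receptor gene, fell by 0.75, a call lost without wild type replicate 2, 3 or 4 and without the run term. A probe set of Met on array A differed by -0.06.

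In the Notch and Wnt list 7 of 32 rose and 3 fell on array A. Wnt4, a secreted ligand, rose by 1.42 (SE 0.14, adjusted p = 2.17e-06), from 5.02 ± 0.17 to 6.44 ± 0.29. Sfrp1, a secreted inhibitor that binds Wnt proteins, rose by 0.70 (SE 0.11, adjusted p = 0.000459) on array A and by 1.22 (SE 0.14, adjusted p = 0.00044) on array B. The first of these was lost without the run term (adjusted p = 0.0573), and 3 further probe sets of array A gave 1.24, 1.10 and 0.15. The Notch ligand Jag1 rose by 0.47 (SE 0.07) and the receptor Fzd6 by 0.57 (SE 0.11). Rspo2, a ligand of the Lgr receptors, went the other way from its receptor Lgr5 and fell by 1.01 (SE 0.11, adjusted p = 5.22e-06), with mutant values of 7.47, 7.23, 7.20 and 7.03 and wild type values of 8.35, 8.49, 8.11 and 8.02. A second Rspo2 probe set, on array B, differed by 0.00. The 3 falls became 1 without wild type replicate 1 or 2 or without the run term.

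Positional genes moved in both directions: of 36 measured Hox and patterning genes on array A, 9 rose and 6 fell, and 6 and 3 without the run term. Hoxc8 rose by 0.78 (SE 0.08, adjusted p = 1.61e-06) and Hoxc6 by 0.46 (SE 0.09), both transcription factors of the trunk, and the Hox partner Meis1 rose by 0.78 (SE 0.10, adjusted p = 4.44e-05). Prrx2, a mesenchymal homeobox gene, rose by 0.58 (SE 0.08) and En1 by 0.70 (SE 0.12). Hoxa10 fell by 0.71 (SE 0.13, adjusted p = 0.00108) and Irx3 by 0.60 (SE 0.10, adjusted p = 0.000435). Probe sets of array B did not pass for Hoxa10, with 0.09 (adjusted p = 0.890), or for Meis1, with 0.29 and 0.02 (adjusted p = 0.582 and 0.883). Of 21 members measured on array B 1 rose, Meis2, by 0.44 (SE 0.09, adjusted p = 0.0234), a call lost without mutant replicate 2 or 3, wild type replicate 2 or 3, or the run term. Without mutant replicate 4 the array B rises were 4. The array A probe set of Meis2 rose by 0.61 (SE 0.14, adjusted p = 0.00965). On array B Hoxd13, the most distal limb Hox gene, fell by 0.69 (SE 0.11, adjusted p = 0.00668), and Tbx4, a hindlimb regulator, by 0.92 (SE 0.19), both lost without the run term. The call of Tbx4 was also lost without mutant replicate 1 or 4 or wild type replicate 1, 2 or 3. Another Hoxd13 probe set, on array A, fell by 0.77. These genes differ with the body region a fibroblast came from, and the labels used here do not say which parts of the embryos were taken.

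Of 21 imprinted genes measured on array A, 6 rose and 1 fell, with a median of 0.21. The 1 fall was lost without mutant replicate 3 or 4, wild type replicate 3 or 4, or the run term. Dlk1, a paternally expressed growth regulator related to Notch ligands, rose by 1.16 (SE 0.09, adjusted p = 8.12e-08), from 10.86 ± 0.13 in the wild type to 12.02 ± 0.16 in the mutant. A Dlk1 probe set of array B differed by 0.11 (adjusted p = 0.428). Peg3, a paternally expressed zinc finger gene, rose by 0.66 (SE 0.06, adjusted p = 7.00e-07), and Cdkn1c, the maternally expressed cell cycle inhibitor p57, by 0.68 (SE 0.08, adjusted p = 2.46e-05). Dcn, given above, is also on this list.

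Redox genes were mostly higher where they were called. Of 31 peroxiredoxin, thioredoxin and glutathione genes on array A, 11 rose and 2 fell, with 8 rises and 0 falls without the run term and 1 fall without mutant replicate 2 or 4. Beside Gpx3, the microsomal glutathione transferase Mgst1 rose by 0.89 (SE 0.07, adjusted p = 2.02e-07), Gstm2 by 0.77 (SE 0.07, adjusted p = 9.58e-07) and the endoplasmic reticulum peroxidase Gpx7 by 0.56 (SE 0.06, adjusted p = 1.24e-05). Gsr, glutathione reductase, fell by 0.50 (SE 0.09, adjusted p = 0.00108), a call lost without the run term (adjusted p = 0.0903). On array B 0 of 7 measured members of that list were called, with a median of -0.34, against 0.12 on array A. In the list of superoxide, heme and NRF2 defence 9 of 32 rose and 0 fell on array A, with 4 rises without the run term. Among the rises were Blvrb, biliverdin reductase B, by 0.74 (SE 0.08, adjusted p = 4.83e-06), the epoxide hydrolase Ephx1 by 0.43 (SE 0.06, adjusted p = 5.54e-05) and the quinone reductase Nqo1 by 0.45 (SE 0.08, adjusted p = 0.000632). On array B 0 of 5 measured members of this defence list were called, with a median of 0.26. In the methionine cycle 0 of 17 rose and 4 fell. After Ahcy, these were Nnmt, nicotinamide N-methyltransferase, by 0.86 (SE 0.15, adjusted p = 0.00115), Mtap, which salvages methylthioadenosine, by 0.34 (SE 0.06, adjusted p = 0.000534), and spermidine synthase (Srm) by 0.20 (SE 0.05), the last lost without mutant replicate 1 or 2 or wild type replicate 2 or 4. Of the 4, the fall of Ahcy was kept without the run term and the others were lost.

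Of 88 oxidative phosphorylation and TCA cycle genes on array A, 6 rose and 2 fell, which is 9.09% and below the 10.8% of all probe sets. Cox6b2, a cytochrome oxidase subunit isoform, rose by 1.06 (SE 0.13). Without the run term 1 rose and 0 fell, and 1 of the 2 falls was lost on leaving out any extract but mutant replicate 2. In the glycolysis list 3 of 20 rose and 2 fell: Ldhb, a lactate dehydrogenase subunit, rose by 0.57 (SE 0.11), and hexokinase 2 (Hk2) fell by 0.35 (SE 0.09), a call lost without mutant replicate 4, wild type replicate 1, 2 or 4, or the run term. Other Ldhb probe sets of array A differed by 0.40, 0.34 and 0.10 (adjusted p = 0.0180, 0.0334 and 0.684). The 2 falls of that list became 1 without mutant replicate 1, 2 or 4 or wild type replicate 2 or 4 and 0 without wild type replicate 1, and without the run term 1 rose and 0 fell. Cholesterol, lipid and fatty acid genes had 12 of 47 higher and 2 lower, and 6 and 1 without the run term. The sterol synthesis enzymes Dhcr7 (0.75), Sqle (0.34), Cyp51 (0.36) and Pmvk (0.48) rose, as did Abca1, the cholesterol exporter, by 0.65 (SE 0.09, adjusted p = 9.33e-05). The fatty acid binding protein gene Fabp5 fell by 0.31 (SE 0.06), lost without the run term.

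In the cell cycle lists most calls were falls. Of 67 G1/S and DNA replication genes on array A, 12 fell and 2 rose, with a median of -0.10. Chaf1b, a chromatin assembly subunit, fell by 0.48 (SE 0.11), Orc1, of the origin recognition complex, by 0.46 (SE 0.11), the MCM helicase gene Mcm3 by 0.40 (SE 0.08) and Uhrf1, a partner of maintenance DNA methylation, by 0.37 (SE 0.09). Other probe sets did not pass for Mcm3, with -0.18, -0.27 and -0.08 (adjusted p = 0.273, 0.114 and 0.518), or for Orc1, with -0.13 on array B (adjusted p = 0.644). The inhibitor genes Cdkn1c and Cdkn2b rose, by 0.68 and 0.40, the latter lost without the run term. The 12 falls became 0 without the run term, 6 without mutant replicate 2 or wild type replicate 3 and 7 without wild type replicate 4. On array B 0 of 19 were called. Of 61 measured genes of G2/M and mitosis, 0 rose on array A and 4 fell, 6.56% called, and 2 fell without the run term. Pttg1, securin, fell by 0.68 (SE 0.05, adjusted p = 1.03e-07) and by 0.91 at another probe set, and the mitotic kinesin gene Kif23 by 0.52 (SE 0.10, adjusted p = 0.00248).

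Of 46 p53 targets on array A 11 rose and 2 fell in these unirradiated cells, with 7 rises and 0 falls without the run term and 1 fall without mutant replicate 1, 2 or 3 or wild type replicate 2 or 3. The rises were led by Igfbp3 and Ptprv, with Dcxr, a carbonyl reductase, at 0.58 (SE 0.07, adjusted p = 3.42e-05) and the stress protein gene Trp53inp1 at 0.73 (SE 0.16, adjusted p = 0.00704). Another probe set of Trp53inp1 differed by 0.36 (adjusted p = 0.409). Among 53 DNA damage signalling and repair genes 0 rose and 3 fell, 5.66% called: Atm, Rad1 (-0.35) and Atr (-0.34). The count was 1 without mutant replicate 4, wild type replicate 2 or wild type replicate 3, and 1 without the run term. The call of Atr was also lost without mutant replicates 1, 2 and 3 in turn and with the replicate number as a block, and that of Rad1 without mutant replicates 1 and 2 and wild type replicate 4 in turn. Probe sets of Atr on array B differed by 0.11 and -0.14 (adjusted p = 0.685 and 0.766).

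Interferon response and antigen processing genes had 10 of 25 measured members higher on array A and 0 lower, with a median of 0.23. Lgals3bp, a secreted galectin ligand, rose by 1.21 (SE 0.14, adjusted p = 1.04e-05), from 5.29 ± 0.28 in the wild type to 6.49 ± 0.14 in the mutant. Ifitm3 and Ifitm1, membrane proteins that hinder viral entry, rose by 0.57 (SE 0.07, adjusted p = 3.10e-05) and 0.73 (SE 0.14, adjusted p = 0.00213), Irf1, an interferon-induced transcription factor, by 0.47 (SE 0.08, adjusted p = 0.000732) and the peptide transporter gene Tap1 by 0.79 (SE 0.18, adjusted p = 0.00663). The 10 rises became 6 without mutant replicate 1 or wild type replicate 1, 2 or 3, and 5 without the run term. On array B Ifi27 rose by 0.77 (SE 0.07, adjusted p = 4.25e-05), lost without the run term (adjusted p = 0.0993). In the Ifi200 cluster 5 of 13 members had a probe set on array A, and Ifi202b was the only one kept by the filter. On array B Ifi207 and Ifi213 were kept and differed by 0.05 and 0.03, at mean levels of 3.61 to 3.99. Chemokine, cytokine and NF-kB genes had 7 of 25 higher and 2 lower: Ptx3, a secreted pattern receptor, rose by 0.63 (SE 0.08, adjusted p = 4.49e-05) and the chemokine genes Ccl2 and Ccl7 by 0.50 (SE 0.07) and 0.62 (SE 0.09), while Cxcl5, a neutrophil chemokine, fell by 0.91 (SE 0.09, adjusted p = 2.90e-06), lost without the run term (adjusted p = 0.0516). Those 2 falls became 1 without mutant replicate 1, 2 or 3 or wild type replicate 2, 3 or 4.

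TGF-beta, BMP and contractile genes had 8 of 42 higher and 1 lower on array A. Id4, an inhibitor of DNA binding downstream of BMP, rose by 0.71 (SE 0.09, adjusted p = 2.95e-05), and Tgfbi, a matrix protein induced by TGF-beta, by 0.64 (SE 0.14, adjusted p = 0.00464). The 8 rises became 5 without mutant replicate 1 or 2 or wild type replicate 1, 2 or 3, and 1 without the run term. The falls became 2 without mutant replicate 4. Immediate early genes had 3 of 28 higher, Klf4 by 0.93 (SE 0.10, adjusted p = 3.29e-06), Nr4a1 by 0.55 (SE 0.08, adjusted p = 9.96e-05) and Fos by 0.50 (SE 0.11), and 1 lower, Fosl1, by 0.33 (SE 0.08). Without the run term the calls of Fos and Fosl1 were lost, and without wild type replicate 1 the falls were 2. In the list of the unfolded protein and amino acid stress responses 7 of 46 rose and 0 fell, among them the transcription factor gene Cebpb by 0.36 (SE 0.07) and the chaperone gene Hyou1 by 0.46 (SE 0.10). This count was 4 without mutant replicate 4 or wild type replicate 2 or 3, and 2 without the run term.

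Called genes were spread over all chromosomes. On array A the share of tested genes that were called was 14.2% over the autosomes, from 9.95% on chromosome 7 to 23.6% on chromosome 14, and 17.6% on chromosome 1, where Pou2f1 lies. On the X chromosome it was 23.6%, 55 of 233 genes. On array B it was 2.54% over the autosomes, 4.90% on chromosome 1 and 5.28% on chromosome 15. The 50 tested genes before Pou2f1 in the RefSeq gene order held 10 called genes on array A and the 50 after it held 7. On array B these counts were 2 and 5. The called neighbours included Creg1, the tested gene of array A just before Pou2f1, which rose by 0.27 (SE 0.08), Atp1b1, a sodium pump subunit, which fell by 0.36 (SE 0.07), and, further off, Gas5, Rgs4 and Ifi202b, already described.

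**Figure D5:**
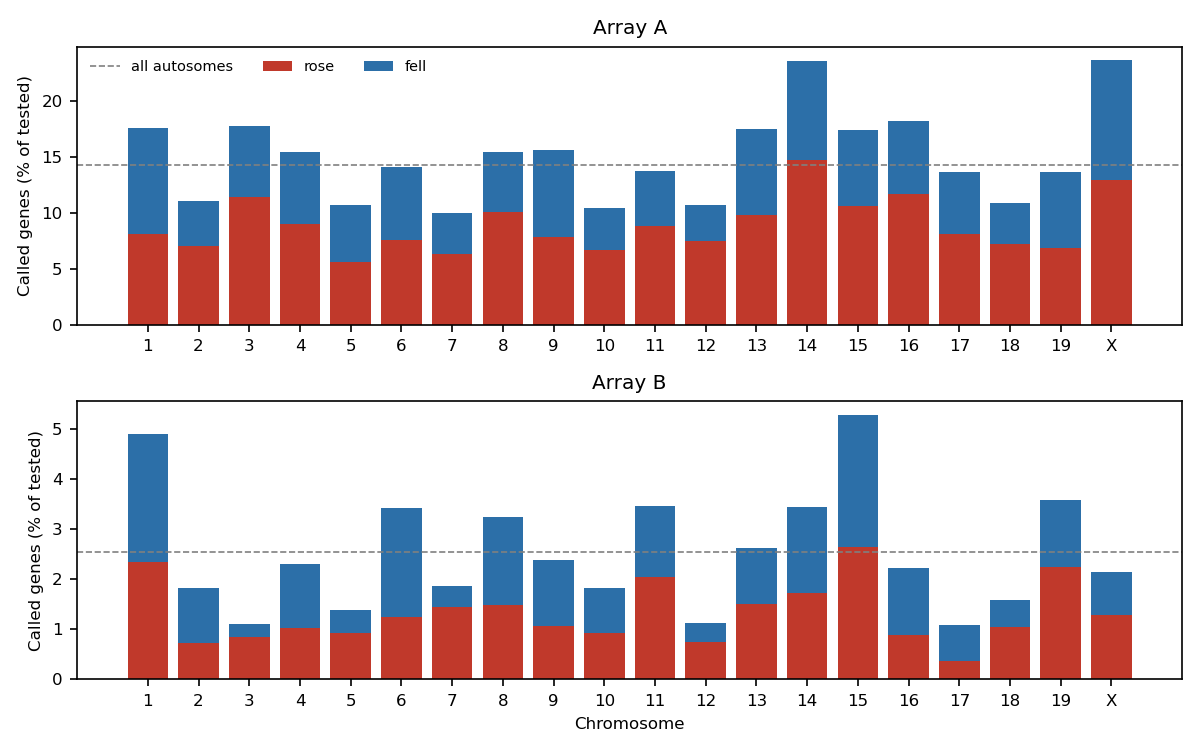
Share of tested genes called in unirradiated Oct-1 mutant against wild type cells, by chromosome, on array A (top) and array B (bottom), split into genes that rose (red) and fell (blue), with the share over all autosomes dashed. The Y chromosome, with 1 tested gene on array A and 3 on array B, is not drawn. Chromosome 14 (23.6%) and the X chromosome (23.6%) stand highest on array A, and chromosomes 15 (5.28%) and 1 (4.90%) on array B.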

How the data were processed

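RNA of early-passage primary MEFs was hybridised to 2 types of Affymetrix array, and the deposited tables hold 22690 (array A) and 22575 (array B) probe sets in 16 arrays each. The deposited values, which the authors had summarised per probe set, were taken as log2 because they run from 0.2645 to 15.75 (array A) and from 0.09735 to 15.51 (array B). Summary and normalization methods and the log base were not given in the sources used here. A wrong log base would rescale every difference and fold. The medians of single arrays were 6.163 to 6.279 (array A) and 3.665 to 3.784 (array B), and 0 pairs of arrays were identical.

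Groups came from the titles. One mutant array lacked a replicate number in its label, which was taken from the array B sample with the same title number. The 64 control probe sets of each type were removed, and probe sets with a mean over 16 arrays at or above the 40th percentile (4.97 and 3.36) were kept. A model of 4 group means plus the number run (title numbers beginning 402 or 403) was fitted per array type with limma 3.58.1 (R 4.3.3, lmFit and eBayes with an intensity trend), with Benjamini-Hochberg adjustment within the array type and a threshold of 0.05. The same model gave the irradiated contrast and the test of the difference between the contrasts. The scripts were tested on simulated data. Genes were named where the platform annotation gives 1 symbol, for 20393 and 14674 probe sets.

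Same-numbered mutant and wild type samples deviated together, with correlations of deviations from the group means of 0.57 to 0.68 (array A) and 0.40 to 0.54 (array B). Within a run, samples of different number gave 0.47 to 0.62 and 0.27 to 0.53, with medians of 0.52 and 0.35. These ranges overlap, so this measure does not settle whether the replicate number pairs samples beyond the run.

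Named genes were the called, single-symbol autosomal genes without overlap between groups and with the largest differences (12 rises and 12 falls on array A, 6 and 6 on array B), the called members of each list with the smallest adjusted p (up to 6), and all measured members of 3 lists. A few further list members, mainly cell type markers and abundant matrix genes, were named after their values were seen. A list gene is its probe set with the highest mean, and other probe sets are given for some list genes only. The members and lists were chosen with earlier results of these data known. Alternatives changed the block, the arrays fitted, the scaling, the filter, the intensity trend, the adjustment and the threshold, and left out each extract in turn. Python 3.11.15 with pandas 2.3.3, numpy 2.4.6 and matplotlib 3.10.9 made the tables and plots.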

Additional observations from a re-analysis of the deposited data

Results flagged for a closer look

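Of the 72 groups of 4 values behind the 36 named probe sets, 2 had 1 value far from the other 3, and chance flags about 1 in 20 such groups. Lipg on array A was 3.86 in mutant replicate 1 and 5.26 to 5.41 in the other mutant replicates, a gap of 0.902 of the group's range. Cthrc1 on array B was 11.64 in mutant replicate 2 and 11.37 to 11.40 in the others, a gap of 0.868 of the range. The calls of both genes were kept without each extract in turn.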

How the results depend on the processing

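On array A limma called 1471, against 525 without the run block, 488 within the first run, 648 within the second and 753 at an adjusted p under 0.01. On array B it called 211, against 59 without the run block, 52 with only the unirradiated arrays, 24 and 13 within the first and second runs, 75 at an adjusted p under 0.01 and 349 with p-values adjusted over both array types. Leaving out 1 extract at a time gave 1048 to 1314 (array A) and 125 to 203 (array B), with 130 without wild type replicate 2 and 125 without wild type replicate 3. With the replicate block in place of the run block the counts were 1505 and 234. Of the 36 named probe sets, 36 kept their call with the replicate block, median centring, quantile normalization, no filter and no intensity trend, 32 without the run block, 33 with only the unirradiated arrays, and 29 and 28 within the first and second runs. The alternatives were also followed for 203 calls, which take in named genes and, of each list, the called members with the smallest adjusted p. Of the 203, no run block ended 93, the first and second runs alone 96 and 94, and only the unirradiated arrays 28. No filter ended 18, median centring 14, no intensity trend 10, quantile normalization 7 and the replicate block 5 (Atr, Ndufa6, Slc3a2, Suclg2 and Tgfbr2). A filter at the 60th percentile, which required means of 7.29 (array A) and 4.14 (array B), tests fewer probe sets. With it 20 of the 36 named probe sets and 162 of the 203 calls were still tested and called. Counted in full on array A, the collagen and matrix list went from 34 rises and 3 falls to 13 and 1 without the run block. No named gene reversed its direction under any of these alternatives in which it was tested. Background was not measured on these arrays, so low values bound the folds of the 10 genes listed with Ifi202b.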

Other observations

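Of 2021 autosomal genes tested on both array types, 28 were called on both with different probe sets. That is 2.6% of all called autosomal genes of array A and 17.1% of those of array B, counting genes tested on only 1 array type. Over all autosomal genes tested, 14.2% were called on array A and 2.54% on array B. The arrays share RNA extracts, so this compares probe sets and is no independent replicate. All 28 had the same sign, 15 higher and 13 lower in the mutant. Fbxo32, Igf1, Igfbp3, Sfrp1 and Syt13, a synaptotagmin, were over 2-fold higher on both. Syt13 rose by 1.07 on array A and 1.11 on array B. Tmem176a rose by 0.95 and 0.57, the cell surface protein gene Adam23 by 0.89 and 0.57, the transcription factor gene Ebf1 by 0.80 and 0.45 and the glypican gene Gpc6 by 0.75 and 0.60. Pml, which organises nuclear bodies, rose by 0.43 and 0.70.

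The falls shared by both arrays included Trps1, a GATA-type repressor of skeletal development, by 1.07 on array A and 0.83 on array B. Map2, a microtubule-associated protein, fell by 1.24 and 0.80, the annexin gene Anxa4 by 0.68 and 0.50 and the unconventional myosin gene Myo10 by 0.62 and 0.52. Ro60, an RNA-binding autoantigen, fell by 0.42 and 0.81. No gene fell over 2-fold on both arrays.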
